A study of Mus musculus with 6 samples.

Results

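The genes described here are 38 markers of blood-derived cells that settle in tissues, namely of macrophages and other leukocytes, of antigen presentation by class II molecules, of lymphocytes and of mast cells. They were named by lineage, with earlier results of these data known. Every probe set whose platform annotation gave exactly the symbol of such a gene was taken. This found all 38 among 18161 measured genes and 66 of 45037 probe sets. The study measured gene expression on Affymetrix mouse genome arrays in both layers of the small intestine of late mouse embryos (E18.5, counted in days of embryonic life), to describe the expression profile of each. The whole small intestine of embryos of C57BL/6 females was opened and held for 9 h at 4 °C in a recovery solution, after which the epithelium was shaken off and the mesenchyme was lifted away and rinsed. No other treatment or genotype is given for either group. Epithelium (arrays A, B and C) was the detached sheet and mesenchyme (arrays A, B and C) the rest of the wall, each array holding tissue pooled from 3 embryos. For each tissue 6 pools were made, and 3 were chosen by RT-PCR for little RNA of the other layer, with Vil1 and Prkg2 as epithelial and Vim, Madcam1 and Actg2 as mesenchymal genes. The mesenchymal fraction was not sorted, so that it can hold any cell type of the wall other than epithelium. Whether some leukocytes came off with the epithelium was not tested.

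Macrophages enter the gut wall before birth from yolk sac and fetal liver precursors. They depend on the receptor Csf1r, take up dying cells and make the complement protein C1q. Class II molecules display peptides from engulfed proteins to helper T cells, and their genes are switched on by the coactivator Ciita. Most T cells first leave the thymus around birth, whereas lymphoid tissue inducer cells, which carry Il7r, gather earlier at the sites of future Peyer's patches. Mast cells store proteases such as carboxypeptidase A3 and chymases in their granules.

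Levels are given on a log2 scale, as deposited. A difference is the mesenchymal minus the epithelial mean on that scale, with limma's standard error (n = 3 in each tissue). A gene counts as called at an adjusted p (Benjamini-Hochberg) under 0.05 with a difference of at least 2-fold. A gene is represented by its brightest probe set, the one with the highest mean over the 6 arrays. The arrays had medians of 8.1 to 8.7. The markers of each layer followed the labels: 8 of 8 fibroblast and matrix genes and 7 of 7 smooth muscle genes were higher in the mesenchyme and 8 of 8 epithelial genes in the epithelium. Of these, Vim, Actg2 and Vil1 had served to choose the pools, so that their side was in part fixed by that choice. The 8 fibroblast genes averaged 7.66 to 8.0 in the epithelial arrays and 13.31 to 13.45 in the mesenchymal arrays, and the 8 epithelial genes averaged 8.69 to 9.41 in the mesenchymal arrays and 13.10 to 13.55 in the epithelial arrays. Of 11 endothelial and 6 neuronal or glial genes, 10 and 4 were also higher in the mesenchyme. The part of RNA carried between the layers in the values below was not tested. Detection calls were not part of the values. A fold is thus understated where a tissue lies near background, and levels of different probe sets are not compared. In whole tissue, fewer cells of a type and less RNA per cell cannot be told apart.

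Leukocyte-wide genes, the chains of C1q, Fc receptor subunits and class II genes were mostly higher in the mesenchyme, most of the called ones by 4-fold or more. The lymphoid genes, the mast cell proteases, Ciita and Csf1r were not called. Of the 38 genes, 22 were higher in the mesenchyme and 0 in the epithelium, where 15.9% and 8.19% of all genes tested were called. At an unadjusted p under 0.05, limma gave 27 on the mesenchymal and 3 on the epithelial side, beside 5936 and 3027 of all 18161 genes. The difference was at least 8-fold for 13 genes, beside 2.62% of all genes. The median difference was 1.77 among the 38 genes and 0.17 over all genes. All 3 mesenchymal arrays lay above all 3 epithelial arrays for 27 of the 38 genes (30.5% of all genes) and below them for 3 (16% of all genes), Lcp1, Csf1r and Irf8. The other 16 of the 38 genes were not called. Of these, 7 passed the adjusted p with less than a 2-fold difference, Adgre1, Cd14, Spi1, Fcgr2b and Cpa3 on the mesenchymal side and Lcp1 and Irf8 on the epithelial side. By role, the calls covered 6 of 8 leukocyte-wide genes, 3 of 3 C1q chains, 6 of 10 macrophage genes, 3 of 4 adaptor and Fc receptor genes and 4 of 5 class II genes. They covered 0 of 2 myeloid transcription factors, 0 of 3 lymphoid genes and 0 of 3 mast cell genes. The standard error was 0.23 for each of the 38 genes, because the fit drew single spreads almost fully towards the spread shared over genes (4 residual and 252.5 prior degrees of freedom). The adjusted p of every called gene was at most 1.13e-05.

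**Figure D1:**
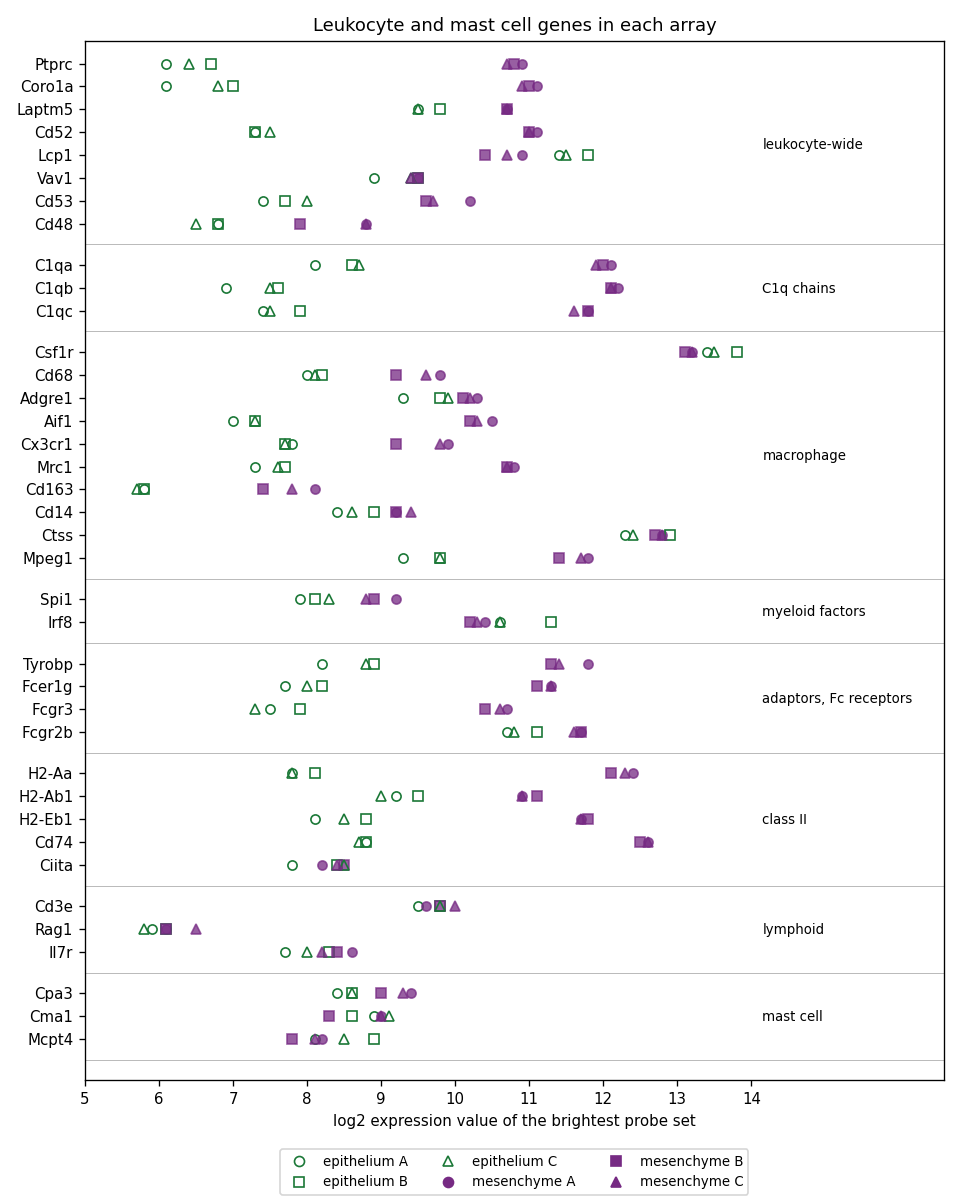
Each symbol is the log2 value of 1 array for the brightest probe set of a gene (open green, epithelium A, B and C; filled purple, mesenchyme A, B and C), with genes grouped by role; positions compare arrays within a gene, not genes with each other. The purple symbols lie to the right of all green ones for 27 of 38 genes, while Lcp1, Csf1r and Irf8 show the reverse order and the lymphoid genes overlap.

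Among the genes that leukocytes of nearly all kinds express, the surface phosphatase Ptprc (CD45), which sets the threshold of antigen receptor signalling, was at 6.1, 6.7 and 6.4 in epithelium A, B and C and at 10.9, 10.8 and 10.7 in mesenchyme A, B and C. The difference was 4.40 ± 0.23 (SE), or 21.1-fold (95% interval 15.5 to 28.8), so that the epithelial level was 4.74% of the mesenchymal level. The arrays of the layers were far apart, and the spread in the mesenchyme (SD 0.10, n = 3) was smaller than in the epithelium (SD 0.30, n = 3). Coro1a, an actin-binding protein of leukocytes, was at 6.1, 7.0 and 6.8 in the epithelium and at 11.1, 11.0 and 10.9 in the mesenchyme, a difference of 4.37 ± 0.23. Cd52, a small glycoprotein anchored on lymphocytes and macrophages, was at 7.3, 7.3 and 7.5 against 11.1, 11.0 and 11.0, a difference of 3.67 ± 0.23. For these 3 genes no mesenchymal array differed from another by more than 0.2.

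The tetraspanin Cd53 was at 7.4, 7.7 and 8.0 in the epithelium and at 10.2, 9.6 and 9.7 in the mesenchyme (2.13 ± 0.23), and Cd48, a partner of the receptor CD2, at 6.8, 6.8 and 6.5 against 8.8, 7.9 and 8.8 (1.80 ± 0.23). Mesenchyme B lay 0.90 below the mean of mesenchyme A and C for Cd48, and still above every epithelial array. Laptm5, a lysosomal protein of haematopoietic cells, was at 9.5, 9.8 and 9.5 against 10.7 in all 3 mesenchymal arrays. Its call, at 1.10 ± 0.23, was the smallest of the 22 and was lost under 4 other scalings of the arrays (0.80 to 0.87) and when probe sets open to cross-hybridization were avoided (0.17). Vav1, an exchange factor downstream of antigen receptors, did not pass, with 8.9, 9.5 and 9.4 in the epithelium and at 9.5, 9.5 and 9.4 in the mesenchyme (0.20, 95% interval -0.25 to 0.65). Lcp1, the actin-bundling protein L-plastin, went the other way. It was at 11.4, 11.8 and 11.5 in the epithelium and at 10.9, 10.4 and 10.7 in the mesenchyme, a difference of -0.90 ± 0.23 (limma, adjusted p 0.000403). This is less than 2-fold, and the gene was called higher in the epithelium with equal array medians (-1.20), after cyclic loess (-1.01), with equal ribosomal protein genes (-1.14) and without mesenchyme A (-1.02).

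The 3 chains of C1q, which binds immune complexes and dying cells and starts the classical complement pathway, were all higher in the mesenchyme, by 3.53 to 4.80. C1qa was at 8.1, 8.6 and 8.7 in the epithelium and at 12.1, 12.0 and 11.9 in the mesenchyme (3.53 ± 0.23, 11.6-fold). C1qb was at 6.9, 7.6 and 7.5 against 12.2, 12.1 and 12.1 (4.80 ± 0.23, 27.9-fold), the largest difference among the 38 genes by their brightest probe sets. C1qc was at 7.4, 7.9 and 7.5 against 11.8, 11.8 and 11.6 (4.13 ± 0.23, 17.5-fold). For each chain the mesenchymal arrays lay within 0.2 of each other and far above the epithelial arrays, of which A was the lowest. The genes lie next to each other on chromosome 4 in RefSeq's GRCm38.p6 annotation, in the order C1qb, C1qc and C1qa with 0 protein-coding genes between neighbours. All 5 probe sets of the 3 genes were called in the mesenchyme, and the differences of the 3 for C1qb ran from 4.03 to 6.80.

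The 10 macrophage genes split. Of these, 6 were higher in the mesenchyme, namely Mrc1, Aif1, Mpeg1, Cd163, Cx3cr1 and Cd68. The mannose receptor Mrc1, which clears glycoproteins, was at 7.3, 7.7 and 7.6 in the epithelium and at 10.8, 10.7 and 10.7 in the mesenchyme (3.20 ± 0.23). Aif1 (Iba1), a calcium-binding protein of motile macrophages, was at 7.0, 7.3 and 7.3 against 10.5, 10.2 and 10.3 (3.13 ± 0.23). Both were about 9-fold higher, at 9.19-fold and 8.77-fold, with no overlap of the arrays. Mpeg1, a pore-forming protein of the phagosome, was at 9.3, 9.8 and 9.8 against 11.8, 11.4 and 11.7, and Cd163, the receptor for haemoglobin bound to haptoglobin, at 5.8, 5.8 and 5.7 against 8.1, 7.4 and 7.8. The difference was 2.00 ± 0.23 for each. The fractalkine receptor Cx3cr1 was at 7.8, 7.7 and 7.7 against 9.9, 9.2 and 9.8 (1.90 ± 0.23), and Cd68, a lysosomal glycoprotein, at 8.0, 8.2 and 8.1 against 9.8, 9.2 and 9.6 (1.43 ± 0.23). In these last 4 genes mesenchyme B was the lowest mesenchymal array.

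The other 4 macrophage genes were not called. The receptor Csf1r, on which macrophage survival depends, was at 13.4, 13.8 and 13.5 in the epithelium and at 13.2, 13.1 and 13.2 in the mesenchyme. Every epithelial array lay above every mesenchymal one, by a difference of -0.40 (95% interval -0.85 to 0.05) that did not pass (limma, adjusted p 0.152). Its other probe sets gave -0.37 and -0.43, so that all 3 pointed to the epithelium and none passed. The lysosomal protease cathepsin S (Ctss), which trims the class II invariant chain, was at 12.3, 12.9 and 12.4 against 12.8, 12.7 and 12.8 (0.23, adjusted p 0.436 by limma), with overlapping arrays. Adgre1, which encodes the macrophage antigen F4/80, was at 9.3, 9.8 and 9.9 against 10.3, 10.1 and 10.2, and the endotoxin co-receptor Cd14 at 8.4, 8.9 and 8.6 against 9.2, 9.2 and 9.4. Their differences of 0.53 and 0.63 passed limma's adjusted p (0.0471 and 0.0159) below 2-fold. In the fit across all probe sets, the adjusted p of Adgre1 was 0.0691.

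Neither myeloid transcription factor was called, and they lay on opposite sides. Spi1 (PU.1), which is required for macrophage development, was at 7.9, 8.1 and 8.3 in the epithelium and at 9.2, 8.9 and 8.8 in the mesenchyme (0.87 ± 0.23, adjusted p 0.000672 by limma). Irf8, a factor of monocytes and dendritic cells, was at 10.6, 11.3 and 10.6 against 10.4, 10.2 and 10.3 (-0.53 ± 0.23, adjusted p 0.0475 by limma, and 0.0757 across all probe sets). The arrays did not overlap for either gene, and the second probe set of Irf8 gave -0.63. Spi1 reached 1.13 and a call with equal spike-in controls, and the controls were dimmer on mesenchyme B (9.80) than on the other 5 arrays (10.56 to 10.77). Without that array it was not called. The letters GAGGAA, the core bound by PU.1, occur on either strand in 13 of 33 RefSeq promoter windows (39.4%) of the 28 matched genes, which belong to 12 genes, and in 28.3% of all 32851 windows of the same length.

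Signalling adaptors and Fc receptors were higher in the mesenchyme for 3 of 4 genes. Tyrobp (DAP12), the adaptor of receptors such as Trem2, was at 8.2, 8.9 and 8.8 in the epithelium and at 11.8, 11.3 and 11.4 in the mesenchyme (2.87 ± 0.23). Fcer1g, the shared gamma chain of activating Fc receptors, was at 7.7, 8.2 and 8.0 against 11.3, 11.1 and 11.3 (3.27 ± 0.23). Fcgr3, an activating receptor for IgG that needs that chain, was at 7.5, 7.9 and 7.3 against 10.7, 10.4 and 10.6 (3.00 ± 0.23). The chain and its receptor thus both stood at least 8-fold higher in the mesenchyme. Fcgr2b, the inhibitory receptor for IgG, was at 10.7, 11.1 and 10.8 against 11.7, 11.7 and 11.6. The difference of 0.80 ± 0.23 passed the adjusted p (0.00179, limma) below 2-fold, and it reached a call at 1.06 with equal spike-in controls, again not without mesenchyme B. Of 17 further partners and kinases of these adaptors, limma called 0 in either direction, beside 15.9% and 8.19% of all genes. At an unadjusted p under 0.05, limma gave 5 on the mesenchymal side, beside 5936 of all 18161 genes. The median difference of the 17 was 0.33, beside 0.17 over all genes. These counts rest on the brightest probe sets. Fcgr1, which is among the 17, gave 0.37 by its brightest probe set and was called in the mesenchyme for the mean of its probe sets (1.78).

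Of the 5 class II genes, 4 were higher in the mesenchyme and their coactivator was not. H2-Aa, the alpha chain of the class II molecule I-A, was at 7.8, 8.1 and 7.8 in the epithelium and at 12.4, 12.1 and 12.3 in the mesenchyme (4.37 ± 0.23, 20.6-fold, 95% interval 15.1 to 28.2). Cd74, the invariant chain that guides class II molecules to the endosome, was at 8.8, 8.8 and 8.7 against 12.6, 12.5 and 12.6 (3.80 ± 0.23, 13.9-fold). H2-Eb1, the beta chain of I-E, was at 8.1, 8.8 and 8.5 against 11.7, 11.8 and 11.7 (3.27 ± 0.23). The mesenchymal arrays lay within 0.3 of each other for all 3 genes. H2-Ab1, the beta chain of I-A, was at 9.2, 9.5 and 9.0 against 10.9, 11.1 and 10.9. Its brightest probe set gave 1.73 ± 0.23 and its other probe sets gave 3.03 and 3.17. Ciita was at 7.8, 8.4 and 8.5 against 8.2, 8.5 and 8.4, a difference of 0.13 (95% interval -0.32 to 0.58, adjusted p 0.672 by limma), and its other probe sets gave -0.23 and 0.00. The arrays of the layers overlapped for each probe set of Ciita. In all, 9 of 12 class II probe sets were called in the mesenchyme.

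The promoters of H2-Aa and H2-Eb1 are shown because both genes were higher together while Ciita was not called. Ciita acts on class II promoters through the proteins bound at their X and Y boxes. Of the class II genes described here, only H2-Aa and H2-Eb1 had a promoter sequence available. The bases are from RefSeq's GRCm38.p6, 250 bases before the annotated start in the gene's direction, at chr17:34287824-34288073 (minus strand) for H2-Aa and chr17:34305617-34305866 (plus strand) for H2-Eb1. Capitals mark an X box core, CTNGCAACT, and then a Y box, CTGATTGG.
H2-Aa: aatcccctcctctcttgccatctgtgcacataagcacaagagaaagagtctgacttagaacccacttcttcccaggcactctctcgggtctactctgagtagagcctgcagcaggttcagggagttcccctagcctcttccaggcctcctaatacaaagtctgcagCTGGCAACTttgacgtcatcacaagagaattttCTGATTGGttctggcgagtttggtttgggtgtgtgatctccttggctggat
H2-Eb1: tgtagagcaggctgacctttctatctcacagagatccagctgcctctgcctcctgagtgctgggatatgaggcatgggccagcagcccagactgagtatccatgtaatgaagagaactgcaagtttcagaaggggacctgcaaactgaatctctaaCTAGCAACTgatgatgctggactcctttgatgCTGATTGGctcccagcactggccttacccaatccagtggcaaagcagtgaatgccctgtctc
In H2-Aa the X box core began 84 bases and the Y box 51 bases before the start, with 24 bases between them. In H2-Eb1 they began 94 and 62 bases before the start, with 23 bases between. Windows from 250 bases before to 50 bases after the start were searched on both strands, the motifs do not overlap, and the letters of the X box core were chosen after these sequences were seen. The X box core lay in 295 of 32851 windows (0.898%), the Y box in 1346 (4.1%) and both in 16 (0.0487%). Of 28 genes with a window, H2-Aa and H2-Eb1 held both, and Irf8 held the Y box alone. H2-Ab1, Cd74 and Ciita had no window and were not searched. A match describes the letters and is not a measured binding site. H2-Ab1, H2-Aa and H2-Eb1 are neighbours on chromosome 17, with 0 protein-coding genes between each and the next.

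Among 15 further genes of the class II pathway, 1 (6.67%) was called in the mesenchyme and 2 in the epithelium, beside 15.9% and 8.19% of all genes. Ifi30, a thiol reductase of the endosome that unfolds antigens, was at 12.9, 13.3 and 13 in the epithelium and at 11.7, 11.4 and 11.6 in the mesenchyme (-1.50 ± 0.23). The factor Creb1 was higher in the mesenchyme (1.27 ± 0.23), a call lost with equal array medians (0.97) and for the mean of its probe sets (0.67). H2-DMa, a chain of the molecule that loads peptides onto class II, was called in the epithelium by its brightest probe set (-1.13, and -0.87 without a call for equal spike-in controls) and in the mesenchyme by its other one (1.90). The former has a suffix for possible cross-hybridization. Besides Creb1, the binding factors of the X and Y boxes in this list were Rfx5 (0.40), Rfxap (0.50), Rfxank (0.57), Nfya (0.70), Nfyb (0.47) and Nfyc (-0.10). None of these 6 was called, and they were chosen after their values were seen.

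None of the 3 lymphoid genes was called, and limma gave 0 at an unadjusted p under 0.05. Cd3e, a signalling chain of the T cell receptor, was at 9.5, 9.8 and 9.8 in the epithelium and at 9.6, 9.8 and 10.0 in the mesenchyme (0.10, 95% interval -0.35 to 0.55). Rag1, which cuts antigen receptor genes in immature lymphocytes, was at 5.9, 6.1 and 5.8 against 6.1, 6.1 and 6.5 (0.30, 95% interval -0.15 to 0.75). Il7r, the receptor of T cell precursors and inducer cells, was at 7.7, 8.3 and 8.0 against 8.6, 8.4 and 8.2 (0.40, 95% interval -0.05 to 0.85). The arrays overlapped for all 3 genes. The dimmer probe set of Il7r was at 5.7, 6.2 and 6.1 against 7.3, 6.7 and 6.6, without overlap, and its difference of 0.87 passed the adjusted p (0.00372, limma) below 2-fold. Of 19 further T cell genes, 0 were called in the mesenchyme by limma, with 0 there at an unadjusted p under 0.05, and their median difference was -0.03. Bcl11b was called in the epithelium (-1.47 ± 0.23). Of 22 further genes of innate lymphocytes, 3 were higher in the mesenchyme (13.6%, beside 15.9% of all genes). These were the granule protease Gzma (2.87 ± 0.23), the cytokine Ltb, by which inducer cells act on stroma (1.60 ± 0.23), and the receptor Il1r1 (1.53 ± 0.23, and 0.83 without a call for the mean of its probe sets). Of 13 B cell genes, the factor Ebf1 was higher in the mesenchyme (1.60 ± 0.23) and the adaptor Blnk in the epithelium (-2.27 ± 0.23). The other 11 were not called, among them Pax5 (0.00), Cd79a (-0.33) and Ms4a1 (0.20). Of the 11, Cd22 (0.70) and Cd79b (0.73) passed limma's adjusted p below 2-fold. The share of B cell genes higher in the mesenchyme was 7.69%, beside 15.9% of all genes.

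The 3 mast cell proteases were not called either. Carboxypeptidase A3 (Cpa3) was at 8.4, 8.6 and 8.6 in the epithelium and at 9.4, 9.0 and 9.3 in the mesenchyme, without overlap. Its difference of 0.70 ± 0.23 passed the adjusted p (0.00702, limma) below 2-fold. The chymase Cma1 was at 8.9, 8.6 and 9.1 against 9.0, 8.3 and 9.0 (-0.10, 95% interval -0.55 to 0.35). Mcpt4, a chymase of connective tissue mast cells, was at 8.1, 8.9 and 8.5 against 8.2, 7.8 and 8.1 (-0.47, adjusted p 0.0884 by limma). For both chymases the arrays overlapped. The genes lie on chromosome 14 with 4 protein-coding genes between them. Of 17 further mast cell and basophil genes, 3 (17.6%, beside 15.9% of all genes) were higher in the mesenchyme, none of them made by mast cells alone. The granule proteoglycan Srgn, made by many blood cells, was at 6.7, 8.0 and 7.6 against 11.4, 10.8 and 10.9 (3.60 ± 0.23), and the amine transporter Slc18a2 at 5.7, 6.1 and 5.6 against 8.2, 7.5 and 7.8 (2.03 ± 0.23). The receptor Kit, also carried by the pacemaker cells of the gut muscle, was at 7.0, 7.7 and 7.0 against 10.8, 10.6 and 10.1 (3.27 ± 0.23).

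**Figure D2:**
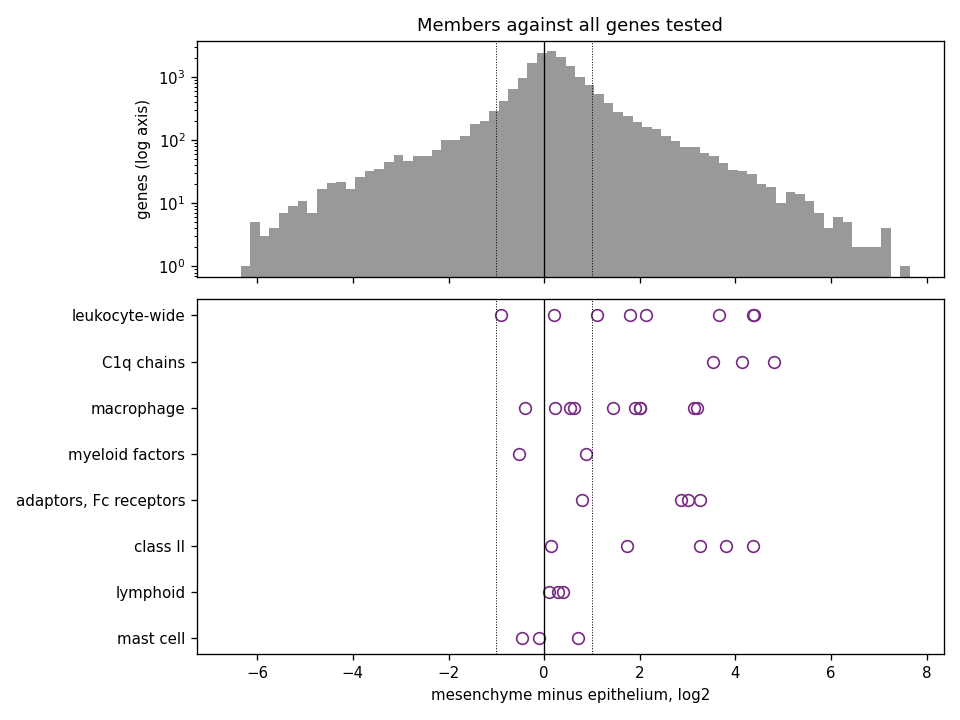
Top, number of genes (log axis) by mesenchyme minus epithelium difference in log2 units for all 18161 genes; bottom, the 38 genes by role on the same axis, with dotted lines at 2-fold. The C1q chains lie between 3.53 and 4.80, while the lymphoid genes lie between 0.10 and 0.40 and the mast cell genes between -0.47 and 0.70.

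Probe sets of a gene did not always give the same difference. Over all 66, 33 were called in the mesenchyme and 0 in the epithelium, beside 15.5% and 5.98% of all probe sets. At an unadjusted p under 0.05, limma gave 3 on the epithelial side, beside 5841 of all 45037 probe sets. The difference reached 8-fold in the mesenchyme for 21 (2.29% of all probe sets), and the arrays did not overlap for 42 with the mesenchyme above (29.3%) and 5 with the epithelium above (12.4%). Several probe sets were available for 15 of the 38 genes. Laptm5 had the widest range, from -0.10 to 5.23. Its probe set with the largest difference was at 5.4, 5.5 and 5.8 in the epithelium and at 10.9, 10.5 and 11.0 in the mesenchyme, whereas the one with the smallest was at 6.0, 6.2 and 5.6 against 5.4, 6.0 and 6.1. Of its 5 probe sets, 2 were called and 3 were not. Ptprc had a second probe set, at 5.9, 6.1 and 6.0 against 6.1, 6.2 and 6.7 (0.33), and Coro1a had a last one at 5.3, 5.7 and 5.7 against 5.4, 5.9 and 5.9 (0.17). Neither was called, and both stayed at or below 6.7 on all 6 arrays. The 5 probe sets of Fcgr2b ran from -0.20 to 1.00, and 1 was called, at exactly 2-fold. C1qb, Cx3cr1, H2-Aa and H2-Ab1 were called by every probe set. Those of H2-Aa, all with a suffix for possible cross-hybridization, had differences from 2.60 to 4.37. Csf1r, Lcp1, Irf8, Vav1, Ciita and Il7r were called by no probe set.

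**Figure D3:**
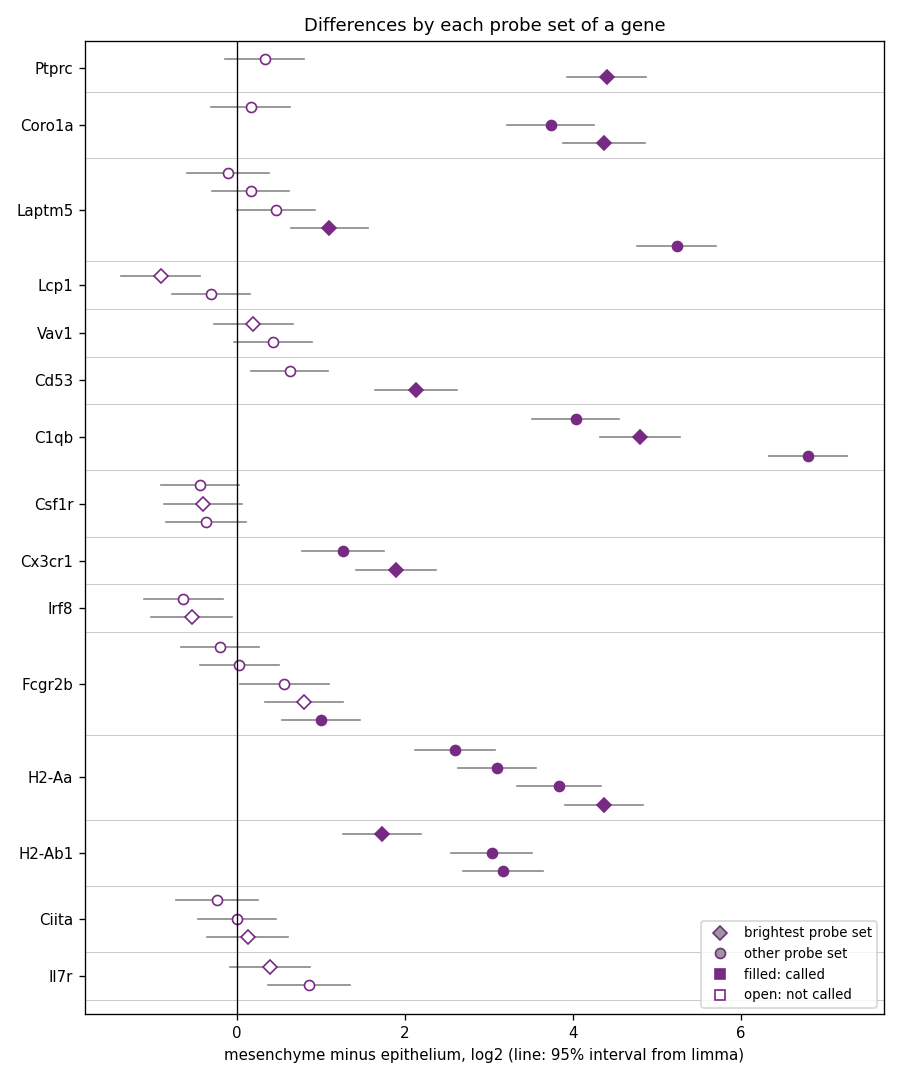
Difference of each probe set, mesenchyme minus epithelium in log2 units, for the 15 genes with several probe sets (diamond, brightest probe set; circle, another; filled, called; line, 95% interval from limma). All probe sets of C1qb, Cx3cr1, H2-Aa and H2-Ab1 are filled, while those of Laptm5 spread from -0.10 to 5.23.

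Within a layer, the arrays differed less for these genes in the mesenchyme than in the epithelium. The median SD over the 38 genes was 0.13 in the mesenchyme and 0.25 in the epithelium (n = 3 each), beside 0.17 and 0.26 over all genes. Among the 22 called genes, epithelium B was the highest epithelial array in 18 and epithelium A the lowest in 16, ties included. These are 81.8% and 72.7%, near the 85.6% and 73.5% over all 2893 genes called higher in the mesenchyme. In the mesenchyme, array A was highest in 20 of the 22 (90.9%) and array B lowest in 16 (72.7%), beside 74.6% and 46.3% of those 2893 genes. The difference of these shares was not tested. The gap of mesenchyme B below the mean of A and C was 0.90 for Cd48, 0.65 for Cx3cr1, 0.55 for Cd163 and 0.50 for Cd68, and 0.00 for Ptprc, Coro1a and C1qa. Mesenchyme B also had the dimmest spike-in controls, and their part in these gaps was not tested.

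Further macrophage and monocyte genes went mostly the same way. Of 39 measured, 21 (53.8%) were higher in the mesenchyme and 1 in the epithelium, beside 15.9% and 8.19% of all genes. Their median difference was 1.00, beside 0.17 over all genes. Cybb, the core of the oxidase that makes superoxide, was at 6.8, 7.0 and 7.0 in the epithelium and at 10.1, 9.6 and 9.6 in the mesenchyme (2.83 ± 0.23). The transglutaminase chain F13a1 (2.37 ± 0.23), the shared cytokine receptor chain Csf2rb (2.20 ± 0.23) and the phagosomal metal transporter Slc11a1 (2.20 ± 0.23) followed. The exception was the factor Maf, at 12.5, 13 and 12.7 against 11.8, 11.5 and 11.2 (-1.23 ± 0.23). This call was lost with equal spike-in controls (-0.97) and for the mean of its probe sets (-0.67). Of 26 genes of leukocyte motility and signalling, 13 (50%) were higher in the mesenchyme and 0 in the epithelium. At an unadjusted p under 0.05, limma gave 1 on the epithelial side, beside 3027 of all 18161 genes. The 13 included the actin-binding protein Lsp1 (3.47 ± 0.23), Evi2a (2.33 ± 0.23), the integrin chain Itgal (1.93 ± 0.23) and the platelet and leukocyte protein Plek (1.83 ± 0.23).

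Lists of other blood cells held fewer calls. Higher in the mesenchyme were 21.4% of dendritic, 13.3% of neutrophil, 22.2% of megakaryocyte and 8.33% of erythroid genes, beside 15.9% of all genes. Of 14 dendritic cell genes, 3 were higher in the mesenchyme, Batf3 (1.63 ± 0.23), Itgax (1.57 ± 0.23) and Cd83 (1.17 ± 0.23); the call of Cd83 was lost under 4 scalings (0.85 to 0.95) and without mesenchyme A (0.98). Of 15 neutrophil genes, S100a8 (2.03 ± 0.23) and Mmp9 (1.77 ± 0.23) were higher there. Of 5 eosinophil genes, limma called 0, with 2 on the mesenchymal side at an unadjusted p under 0.05, beside 5936 of all 18161 genes. Of 9 megakaryocyte and platelet genes, 2 were called, and the platelet chemokine Pf4, at 6.4, 7.5 and 6.8 in the epithelium and at 11.3, 11.2 and 11.2 in the mesenchyme (4.33 ± 0.23), had a difference close to those of Coro1a and H2-Aa. The other was the integrin chain Itgb3 (2.23 ± 0.23). The remaining 7 were not called, among them the platelet receptor genes Itga2b (0.30), Gp9 (-0.20) and Gp1bb (0.00). Only Ppbp (0.97) of these 7 passed limma's adjusted p, below 2-fold. Of 12 erythroid genes, the haem synthesis enzyme Alas2 was higher in the mesenchyme (1.70 ± 0.23) and the transferrin receptor Tfrc, which many growing cells carry, in the epithelium (-2.13 ± 0.23). Over the 205 leukocyte genes outside the 38, dendritic, platelet and lymphoid lists included, 49 (23.9%) were higher in the mesenchyme and 5 in the epithelium. Over all genes the shares were 15.9% and 8.19%. The median difference of the 205 was 0.33. The difference between the share of the 205 and that of the 38 was not tested.

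**Figure D4:**
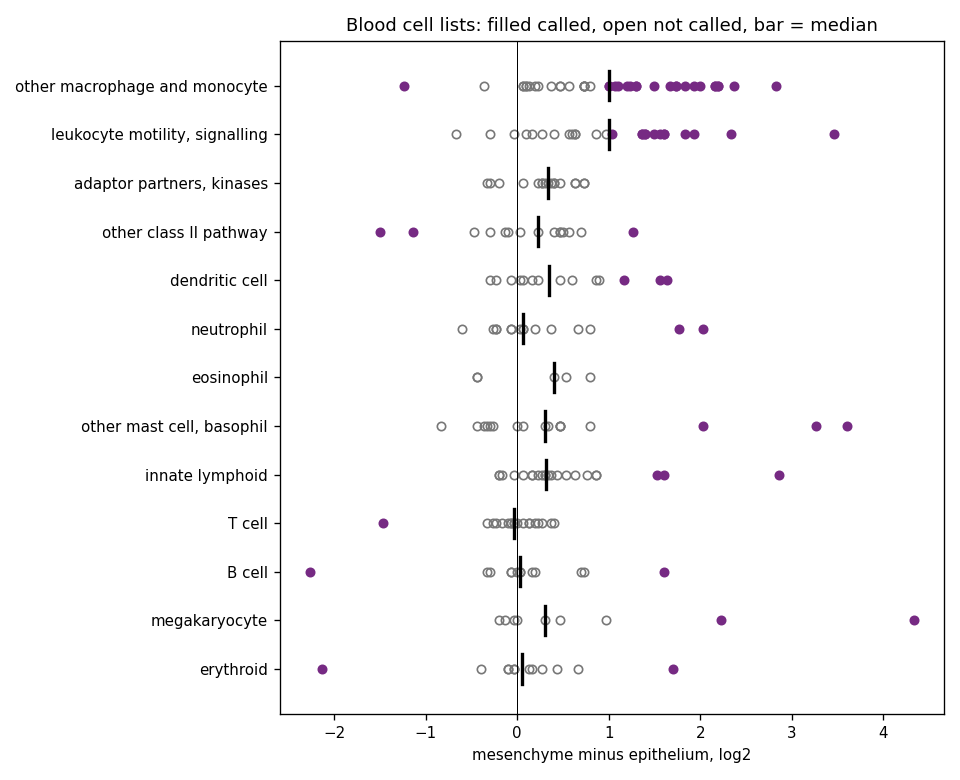
Each circle is the mesenchyme minus epithelium difference, in log2 units, of 1 gene of a blood cell list outside the 38 (filled, called by limma; open, not called), and the bar is the list's median. The medians of the other macrophage genes and of the motility genes are 1.00, that of the T cell genes is -0.03.

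Ligands that maintain these cells were compared with their receptors, each within its own probe set. Csf1, the main growth factor of macrophages, was at 9.4, 9.5 and 9.7 in the epithelium and at 10.5, 10.4 and 10.4 in the mesenchyme. The difference of 0.90 ± 0.23 passed the adjusted p (0.000384, limma) below 2-fold, it was called at 1.16 with equal spike-in controls (not without mesenchyme B), and another of its 4 probe sets was called at 1.97. Il34, the other ligand of Csf1r, was at 8.1, 8.2 and 7.9 against 7.4, 8.2 and 7.6 (-0.33, adjusted p 0.245 by limma). The receptor Csf1r was not called, as given above, so that no member of this group was called by its brightest probe set.

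Cx3cl1 and its receptor Cx3cr1 lay on opposite sides. The ligand was at 10.4, 10.9 and 10.3 in the epithelium and at 9.3, 9.8 and 9.9 in the mesenchyme (-0.87 ± 0.23, adjusted p 0.000718 by limma), below 2-fold. It was called in the epithelium under 4 scalings (-1.10 to -1.17), for the mean of its probe sets (-1.03) and by 1 of its 4 probe sets (-1.67), while Cx3cr1 was called in the mesenchyme. Of the ligands of Il7r, Il7 was at 7.1, 7.8 and 6.6 against 7.6, 7.4 and 6.8 (0.10, adjusted p 0.756 by limma), and Tslp at 6.1, 6.2 and 5.9 against 7.6, 7.3 and 7.3 (1.33 ± 0.23). Kitl was at 9.7, 10.7 and 9.9 against 12.0, 12.0 and 11.7 (1.80 ± 0.23), on the same side as its receptor Kit. Flt3l was not analysed here. The alarmin Il33 completed the 3 calls among 12 growth factors, at 7.1, 8.7 and 6.8 against 10.8, 10.3 and 10.5 (3.00 ± 0.24). These 3 calls were 25% of the 12, beside 15.9% of all genes. Of 7 stromal genes of Peyer's patch formation, 5 were higher in the mesenchyme. These were the chemokine Cxcl12 (5.37 ± 0.23), the homing ligand Madcam1, by which the pools had been chosen (2.63 ± 0.23), the adhesion molecules Vcam1 (2.00 ± 0.23) and Icam1 (1.33 ± 0.23), and Cxcl13 (1.10 ± 0.23), whose call was lost under 4 scalings (0.80 to 0.90) and without epithelium A (0.97).

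**Figure D5:**
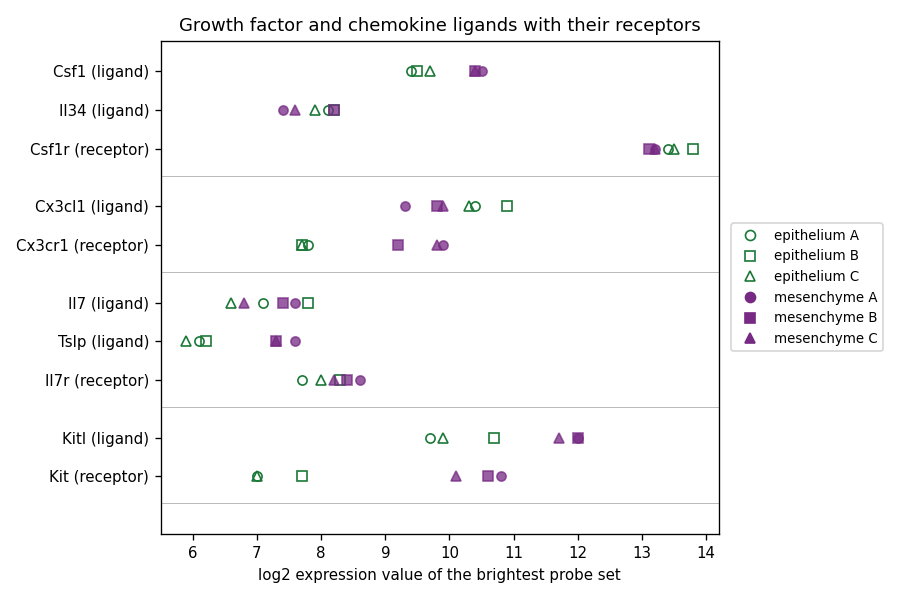
Each symbol is the log2 value of 1 array for the brightest probe set of a ligand or receptor (open green, epithelium A, B and C; filled purple, mesenchyme A, B and C); positions compare arrays within a gene only. Kitl and Kit both lie higher in the mesenchyme, Cx3cl1 and Cx3cr1 lie on opposite sides, and the arrays of Il34, Il7 and Il7r overlap.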

How the data were processed

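The authors deposited log2 expression values per probe set, made with RMA per the submitters' processing notes; its version and settings are not given in the sources used here, and values are rounded to 0.1. Of 45101 probe sets, 64 controls were set aside. Of the other 45037, 34945 had 1 gene symbol, 932 several and 9160 none, and RefSeq names (GRCm38.p6) were applied, giving 18161 genes. Groups were taken from the labels. The comparison used limma 3.58.1 in R 4.3.3 (lmFit and eBayes, no covariate, no further scaling) with Benjamini-Hochberg adjustment over all genes or all probe sets, and was tested on simulated data. A suffix of s or x marks probe sets that may bind several transcripts. The p-values concern pools chosen by RT-PCR, and in the fit of genes they rest almost fully on the spread shared over genes. The labels do not say that letters pair arrays, and same-letter deviations correlated at -0.27, -0.11 and 0.13, so letters were not used. The 38 genes and all lists were chosen with earlier results of these data known. Named were all 38, up to 4 called genes per list with the largest difference and up to 4 of the minority direction, and 7 ligands. Cxcl13, the fifth call of its list, and the uncalled platelet and B cell genes were added after their values were seen. No list was tested as a set. Alternatives were other scalings, probe set choices, a dim filter, an array left out and a block by letter. Sequences are from RefSeq's promoter table, which held 28 of the 38 genes.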

Additional observations from a re-analysis of the deposited data

How the results depend on the processing

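Under 18 alternatives, 21 to 24 of the 38 genes were higher in the mesenchyme. Of the 22 called, 21 kept the call wherever they were tested (the dim filter left out Cd163 and Rag1), and Laptm5 lost it. Avoiding s and x probe sets could not change the calls of H2-Aa and Aif1, which have no others. Lcp1, Spi1 and Fcgr2b gained a call. The number higher in the epithelium rose from 0 to 1, for genes and for probe sets, with equal array medians, cyclic loess and equal ribosomal protein genes, and it ranged from 0 to 1 when single arrays were left out. With the letter as a replicate block, 22 genes and 33 probe sets were called. Among the 205 other leukocyte genes, those higher in the epithelium went from 5 to 3 with equal spike-in controls and for means of probe sets. H2-DMa turned from -1.13 to 1.90 with s and x probe sets avoided and to 0.38 for the mean. The scalings moved the median of all genes by -0.30 (medians), -0.27 (quantile), -0.21 (loess), -0.24 (ribosomal) and 0.26 (spike-in), and the share of calls that were higher in the mesenchyme from 66.0% to 49.4%, 53.0%, 55.4%, 52.5% and 77.5%, or 66.9% for spike-in controls without mesenchyme B. The median of the 38 genes was then 1.47 to 2.03. The fit across all probe sets and the spike-in scaling without mesenchyme B were added after the data were seen. With 3 arrays per tissue and no detection calls, low levels cannot be told from background.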

Other observations

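Some myeloid and class II genes outside the 38 were called by a dimmer probe set and not by the brightest. Fcgr1, the high-affinity receptor for IgG, gave 3.20 by its dimmer and 0.37 by its brightest probe set. Ccr2, the chemokine receptor of monocytes, gave 1.27 to 2.53 by 3 probe sets and 0.10 by its brightest. H2-DMb2, a chain of the peptide loader of class II, gave 1.97 and 2.10 by both dimmer probe sets and 0.47 by the brightest. Outside these lists, the mean of probe sets gave calls in the mesenchyme to Gata2 of the mast cell list (1.07) and Zbtb46 of the dendritic list (1.28). It did so too for Tox (1.36) and Zbtb16 (1.06) of the innate lymphocyte list. Their brightest probe sets gave 0.47, 0.47, 0.63 and -0.20. Calls were also lost for the mean, among them Arhgap15 (0.78), Lcp2 (0.72) and Ms4a6c (0.83). All genes named here were chosen after their values were seen.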
